A study of Mus musculus with 2 samples.

Results

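The core circadian clock genes are 10 genes, Arntl (also called Bmal1), Clock, Npas2, Per1, Per2, Per3, Cry1, Cry2, Nr1d1 and Dbp, chosen by symbol from the mm10 gene tables. All 10 were found among 43346 gene rows, and all 10 passed the minimum of 10 counts over both libraries. Polyadenylated RNA over 200 nt was sequenced with stranded paired reads of 101 nt from the cortex (labelled cortical plate) of adult C57BL/6J mice aged 8 weeks, with littermates of both sexes pooled and spike-in RNAs added. Both libraries, replicates 1 and 2, belong to a single group, so each comparison of replicate 2 with replicate 1 sets one library against the other and no condition against another. A time of day of collection is not given in the sources used here.

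The circadian clock is a transcriptional feedback loop that runs in most cells of the body, those of the cortex included. ARNTL pairs with CLOCK, or with its relative NPAS2, and the pair binds E-boxes to switch on the Per and Cry genes, whose proteins return to the nucleus and block the pair. Another loop runs through NR1D1 (REV-ERBα), which represses Arntl, and output factors such as DBP pass the rhythm on to other genes through D-boxes.

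Promoter stretches of 6 members are shown because they hold elements of that loop or, for Arntl, an unusual run of 1 motif. They come from RefSeq promoter windows on GRCm38.p6, 250 bases before to 50 after a start site. Windows were matched by symbol for 9 of the 10 members, 13 windows in all. Per2 had no window, so its promoter was not searched for any motif. Only bases before the start site are printed, 5′ to 3′ on the gene's strand, and a motif on the other strand appears as its reverse complement. Capitals mark an E-box in Per1 (chr11:69098759-69098828, plus strand) and an E-prime box followed by an E-box in Cry1 (chr10:85185085-85185154, minus strand). In Nr1d1 (chr11:98775378-98775437, minus strand) and Cry2 (chr2:92434200-92434259, minus strand) they mark an E-prime box. In Per3 (chr4:151044806-151044885, minus strand) they mark a pair of D-boxes, and in Arntl (chr7:113207215-113207464, plus strand) CCAAT boxes.
Per1: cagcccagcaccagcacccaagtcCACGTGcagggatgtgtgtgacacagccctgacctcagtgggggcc
Cry1: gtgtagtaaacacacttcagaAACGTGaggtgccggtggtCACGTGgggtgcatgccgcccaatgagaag
Nr1d1: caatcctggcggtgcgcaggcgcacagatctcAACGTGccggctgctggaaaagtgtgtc
Cry2: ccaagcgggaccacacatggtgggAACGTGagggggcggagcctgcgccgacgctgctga
Per3: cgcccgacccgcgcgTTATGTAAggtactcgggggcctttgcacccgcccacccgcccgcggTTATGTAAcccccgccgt
Arntl: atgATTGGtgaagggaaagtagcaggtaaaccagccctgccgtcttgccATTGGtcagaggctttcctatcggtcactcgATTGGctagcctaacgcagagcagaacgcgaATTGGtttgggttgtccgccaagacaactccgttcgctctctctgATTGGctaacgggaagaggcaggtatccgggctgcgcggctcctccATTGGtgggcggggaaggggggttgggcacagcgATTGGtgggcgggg

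Motifs were searched on both strands. The E-box, CACGTG, was present in windows of 2 members, Per1 and Cry1, and in 7.15% of all 32851 promoter windows. Its first base lay at -166 from the start site in Per1 and at -60 in Cry1. The E-prime box, CACGTT, was present in 3 members (Cry1, Cry2 and Nr1d1) and in 4.68% of all windows. The D-box, TTANGTAA, was found in Per3 and in no other member window, with 2 matches at -205 and -158, whereas 2.32% of all windows held a match and 0.0822% held as many as Per3. A ROR element, the site through which REV-ERB and ROR proteins act, was matched in 1 Arntl window, 27 bases after the start site at position 113207511, and in 0.384% of all windows. The window of the other Arntl start site, at position 113207465, held 8 matches of the CCAAT box (CCAAT), of which the 7 before the start site are shown above. It was the only 1 of the 32851 windows with that many, a number taken from this window itself. At least 1 CCAAT box was in 7 of the 9 members and in 37.4% of all windows. The cAMP response element, TGACGTCA, was in no member window and in 1.79% of all windows. Its core, TGACG, which the full element contains, was in 3 members and 20.8% of all windows. The GC box, GGGCGG, was in 8 of the 9 members and in 35.7% of all windows. A match describes letters in these windows, not binding of a factor.

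The 10 genes spanned levels from 146.0 ± 7.28 TPM for Dbp to 6.12 ± 0.368 TPM for Cry1 (mean ± SD, n = 2 libraries). TPM is a level per length, scaled to 1 fixed total in each library. The output gene Dbp and the repressor genes Nr1d1 and Cry2 stood at the top. The activator genes Arntl, Npas2 and Clock stood in the lower part, as did the repressor genes Per2 and Cry1. In these libraries, of unstated time of day, the full order was Dbp, Nr1d1, Cry2, Per1, Per3, Arntl, Per2, Npas2, Clock and Cry1. Neighbours in that order did not overlap between libraries except Per1 with Per3 and Per2 with Npas2. Among 13050 protein-coding genes with a mean of at least 1 TPM, 95.2% lay below Dbp, 50.6% below Arntl and 27.0% below Cry1. Rounded counts over both libraries ran from 2444 for Cry1 to 27646 for Cry2. In bulk tissue, a lower level in fewer cells and a lower level per cell cannot be told apart.

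**Figure D1:**
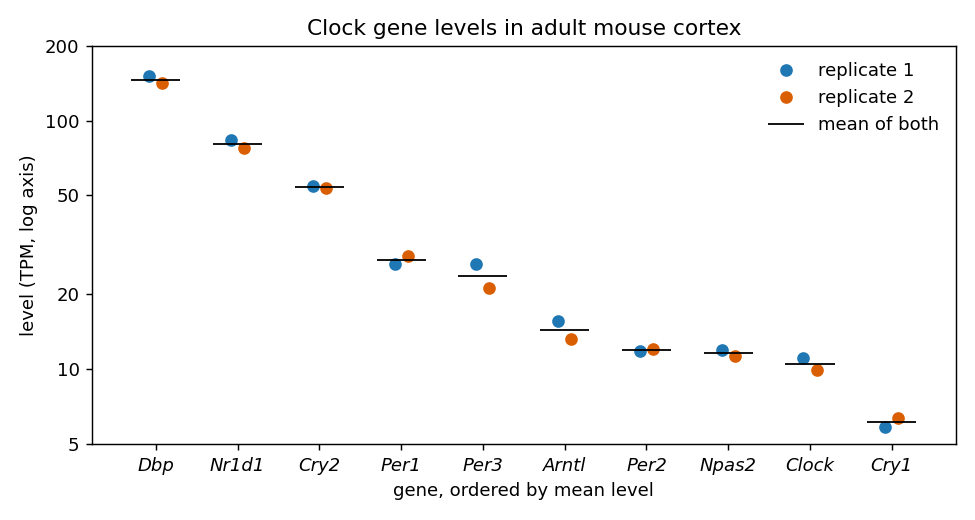
Level of each clock gene in TPM (log axis) in replicate 1 and replicate 2, with a line at the mean of both libraries. Dbp, Nr1d1 and Cry2 stand above the other 7 genes, and the ranges of Per1 and Per3 overlap.

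Between the libraries, 7 of the 10 clock genes passed the threshold of the exact binomial test (adjusted p under 0.05 over all 19829 genes tested), 6 of them higher in replicate 2 and 1 lower. Of all genes tested, 28.7% passed, 14.8% higher and 14.0% lower in replicate 2, and of the 9768 genes with at least 2000 counts, the range in which the members lie, 41.1% passed, 19.9% higher and 21.2% lower. The differences were small, with 2 members, Per1 and Cry1, at least 1.2-fold apart, against 9.32% of all genes and 4.04% of those with at least 2000 counts. On the log2 scale the members' median ratio (replicate 2 over 1) was 0.06, and that of all genes tested was near 0. The test covers counting error alone. With the spread between the libraries over all genes added (edgeR's exact negative binomial test, biological coefficient of variation 0.0905), 0 of the 10 passed. Of the 10, 0 had an unadjusted p under 0.05 by that test. It called 1.31% of all genes and 0.389% of those with at least 2000 counts. The spread came from the same 2 libraries that the test compares, so 0 of 10 does not show that the members were equal. It was also set over all genes, with a median absolute log2 ratio of 0.11, against 0.06 for genes with at least 2000 counts.

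Ratios below are of TMM-scaled counts, with 95% Clopper-Pearson intervals. Ratios of TPM sit lower, with a median log2 ratio of -0.16 over all genes tested, so the TPM and count ratios of a gene can lie on opposite sides of 1. The libraries also differed in tissue and state markers. Striatal markers were higher in replicate 2 for 11 of 11 genes, with a summed level of 149 TPM in replicate 1 and 451 TPM in replicate 2. Hippocampal markers were lower for 5 of 5 (20.2 and 6.86 TPM), and oligodendrocyte markers were higher for 6 of 6 (3490 and 4250 TPM). Activity-regulated genes were higher for 11 of 12 (295 and 395 TPM). With the spread between libraries added (edgeR's exact test), 11 of 11 striatal, 4 of 5 hippocampal, 3 of 12 activity-regulated and 0 of 6 oligodendrocyte genes passed. Cortical neuron markers summed to 2330 and 2080 TPM, of which 1 of 7 was higher and 3 were lower. The part of these differences in the clock gene ratios was not tested.

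**Figure D2:**
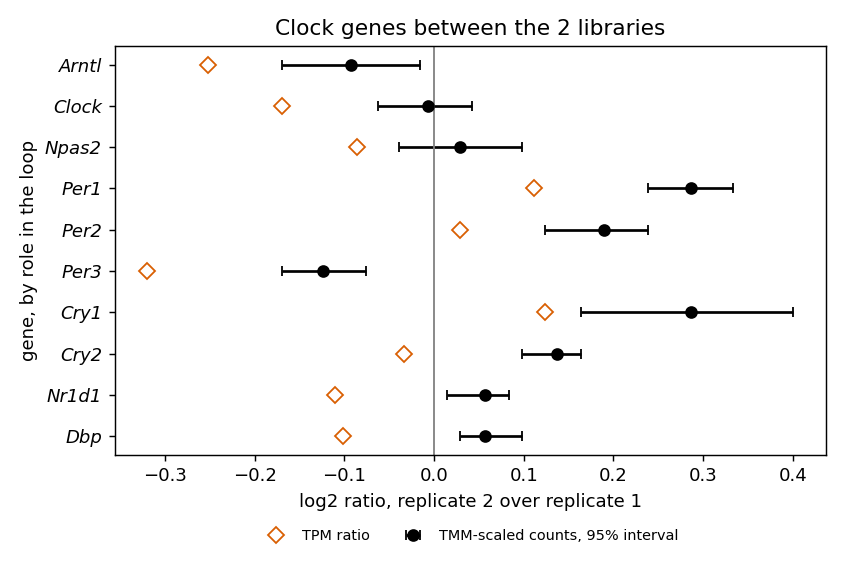
Log2 ratio of replicate 2 over replicate 1 for each clock gene, as TMM-scaled counts with 95% Clopper-Pearson intervals (filled) and as TPM (open). Per1 and Cry1 lie farthest to the right, Per3 is the 1 member past the threshold to the left, and each TPM ratio lies to the left of its count ratio.

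Of the activators, Arntl, the shared partner of CLOCK and NPAS2 (chr7:113207465-113314126, plus strand), had 15.67 TPM in replicate 1 and 13.17 TPM in replicate 2. Clock, a histone acetyltransferase as well as a DNA-binding partner (chr5:76209868-76304792, minus strand), had 11.13 and 9.9 TPM. Npas2, which can stand in for CLOCK in the forebrain (chr1:39193731-39363236, plus strand), had 11.98 and 11.29 TPM. Replicate 1 was the higher library by TPM for each of these 3 genes. By scaled counts none of the 3 passed the threshold. The ratio of replicate 2 to replicate 1 was 0.938 (0.889 to 0.989) for Arntl, with an adjusted binomial p of 0.0609 in this comparison of libraries. It was 0.995 (0.958 to 1.03) for Clock and 1.02 (0.973 to 1.07) for Npas2. The Arntl call turned on the scaling, with an adjusted p of 0.0397 under DESeq2 size factors and 0.00614 under plain totals.

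Among the activators the order differed between measures. By TPM, Npas2 stood above Clock in both libraries, 1.08-fold in replicate 1 and 1.14-fold in replicate 2. Arntl stood above Clock 1.41-fold and 1.33-fold. In the mm9 gene table the log2 ratio to Clock turned to -0.25 for Npas2 and -0.24 for Arntl, in RPKM, a level per length on another annotation. Taken as a median over all introns, reads across splice junctions, which need no division by length, put Clock lowest of the 10 genes. Clock had a median of 51.5 reads per intron in one mm9 column and 57.5 in the other. Npas2 had 112.0 and 108.0, and Arntl 180.0 and 151.0. The mm9 tables hold both libraries in a pair of columns that are not tied to a replicate number, so they are called columns 1 and 2 here. Junction reads of Clock were not even along the gene. Over the 7 introns nearest the 5′ end the median was 35.0 reads in column 1 and 29.0 in column 2, and over the 7 nearest the 3′ end 128.0 and 121.0, a ratio of 3.66 and 4.17. Npas2 had a ratio of 3.13 and 2.57 over 6 introns at each end, and Arntl 1.59 and 1.41. The lowest rank of Clock thus holds for the median over all introns only. Over the 4 introns of Cry1 nearest its 3′ end the medians were 79.0 and 74.0, below those of Clock at that end.

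**Figure D3:**
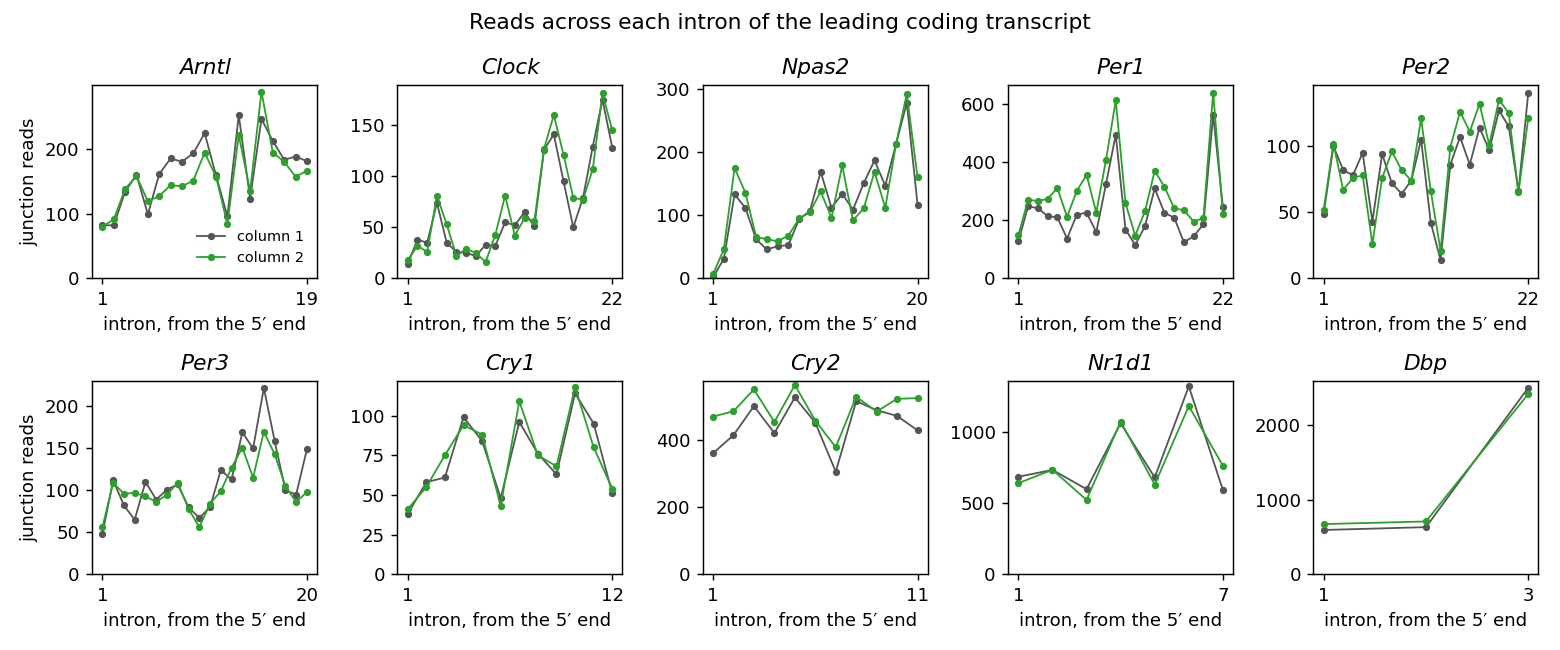
Reads that cross each intron of the leading coding transcript, numbered from the 5′ end, in both mm9 columns, with a separate linear axis for each gene. Reads of Clock and Npas2 are higher toward the 3′ end, those of Cry2 are more level, and the last intron of Dbp has the most reads of its 3.

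Arntl and Clock each have 1 transcript in the deposited mm10 tables, yet both showed alternative splicing in the junction table. Over all members, 147 of 148 internal exons of the leading coding transcripts had at least 20 informative reads in each column. For 129 of them no read skipped the exon in either column, and 4 were included at under 98% in both columns. The lowest of these was exon 18 of Clock, with 23 skipping reads in column 1 and 15 in column 2, which gave inclusion of 75.9% (65.5% to 82.6%, Wilson interval) and 87.0% (79.6% to 91.9%). Exon 18 has 90 nt, or 30 codons, and lies just before the exon lost in the Clock mutant mouse. It is at chr5:76235766-76235855 on the minus strand of GRCm38, within the coding sequence, and is printed in capitals with 15 bases of each neighbouring exon.
Clock exon 18: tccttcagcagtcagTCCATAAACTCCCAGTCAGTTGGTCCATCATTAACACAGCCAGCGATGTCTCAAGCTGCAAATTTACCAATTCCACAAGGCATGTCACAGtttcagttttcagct

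A coding exon of 21 nt in Arntl that the mm10 tables do not list was also used. It is annotated in the transcript Arntl-206 at chr7:113281402-113281422 on the plus strand of GRCm38 and adds 7 codons. In the mm9 junction table it had 27 and 25 reads at its ends in column 1 and 7 and 6 in column 2, against 99 and 119 reads that skip it. Inclusion was 20.8% (14.6% to 28.7%) in column 1 and 5.18% (2.2% to 10%) in column 2, and these intervals do not overlap. No other splice choice examined in a member had intervals that were disjoint between the columns. The exon is in capitals below, with 30 bases of the exon on either side.
Arntl exon of 21 nt: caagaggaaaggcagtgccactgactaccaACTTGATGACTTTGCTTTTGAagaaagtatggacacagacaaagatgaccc

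Several members used a pair of acceptor sites 3 nt apart, which adds or drops 1 codon. At exon 21 of Clock the shorter form took 37.1% (30.8% to 43.9%) of reads in column 1 and 37.4% (30.5% to 44.9%) in column 2. At exon 13 of Arntl it took 30.9% (23.9% to 39.0%) and 22.2% (15.4% to 30.9%). At exon 17 of Per3 it took 22.9% (18.4% to 28.1%) and 24.4% (19.3% to 30.5%). At exon 16 of Per3 it was the more used form, with 76.5% (70.1% to 81.9%) and 76.2% (68.8% to 82.3%). The shares in both columns were close for Clock and Per3, and the intervals overlapped for all 3 genes. For the first 3 of these exons, the capitals below mark the 3 bases in question, after 15 bases of the exon before. These 3 exons are at chr5:76229358-76229563 (minus strand), chr7:113299187-113299433 (plus strand) and chr4:151012241-151012932 (minus strand) on GRCm38, all coding.
Clock exon 21: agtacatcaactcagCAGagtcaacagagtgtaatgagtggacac
Arntl exon 13: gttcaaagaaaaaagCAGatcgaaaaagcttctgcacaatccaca
Per3 exon 17: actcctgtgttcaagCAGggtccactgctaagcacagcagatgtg

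**Figure D4:**
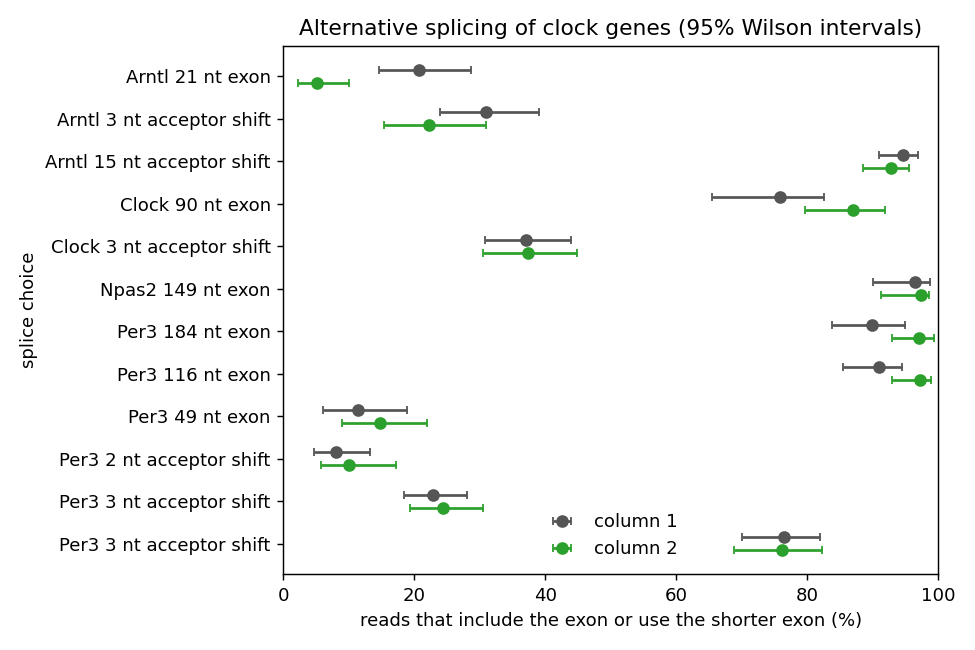
Percent of junction reads that include an exon, or that use the shorter exon at a pair of acceptors, in both mm9 columns with 95% Wilson intervals. The 21 nt exon of Arntl is the choice whose intervals do not overlap.

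The Per genes encode the PER proteins that carry CRY into the nucleus. Per1, which light and neuronal signals also induce in other settings (chr11:69095217-69109960, plus strand), had 26.38 TPM in replicate 1 and 28.49 TPM in replicate 2. Per2, the family member whose loss shortens or abolishes rhythms (chr1:91415982-91459324, minus strand), had 11.82 and 12.03 TPM. Per3, the least essential for rhythm in mice (chr4:151003652-151044665, minus strand), had 26.41 and 21.16 TPM. Both Per1 and Per2 were higher in replicate 2 and Per3 lower. By scaled counts Per1 was 1.22-fold (1.18 to 1.26) higher in replicate 2, with an adjusted binomial p of 2.27e-34 between the libraries. Per2 was 1.14-fold (1.09 to 1.18) higher, with an adjusted p of 5.66e-09. Per3 had a ratio of 0.918 (0.889 to 0.949), with an adjusted p of 3.15e-06, and was the 1 member that passed the threshold in the lower direction. Activity-regulated genes, several of which respond to the same signals as Per1, moved the same way as Per1 in 11 of 12 cases, and their part in the Per1 ratio was not tested.

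Per1 and Per3 were level in replicate 1, with a TPM ratio of 0.999, and apart in replicate 2, with a ratio of 1.35. Per1 stood above Per2 by 2.23-fold and 2.37-fold, and Per3 above Per2 by 2.23-fold and 1.76-fold. Junction reads separated Per1 from Per3 further, with medians of 212.0 and 262.0 reads per intron for Per1, 104.0 and 97.5 for Per3, and 86.0 and 89.0 for Per2. By that measure Per3 stood below Arntl and Npas2.

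Most of the Per3 level was assigned to a transcript with no junction read of its own. The noncoding Per3-204, 3663 nt long, was assigned 59.33% of Per3 TPM in replicate 1 and 54.98% in replicate 2, and the coding Per3-201, 5999 nt, 32.68% and 36.54%. As listed in the mm9 annotation, Per3-204 has 6 introns, of which 1 belongs to no other transcript, and that one had 0 junction reads in both columns. The intron of Per3-201 that ends at the same exon had 150 and 115 reads. A count of 0 allows up to 3 reads, for counting error only. Per3 lies wholly within Camta1 on the same strand, with an overlap of 41014 nt, and Camta1 had 61.3 and 55.1 TPM, so reads from Camta1 introns and from Per3 exons cannot be told apart by strand. An exon of 49 nt in Per3 that is not in the mm9 exon table (mm9 chr4:150416359-150416407) was included at 11.4% (6.01% to 18.9%) and 14.7% (8.99% to 22.0%), and exons 14 and 19 at 91.0% and 89.9% in column 1 and 97.2% and 97.0% in column 2.

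Per1 used more than one start. Per1-201 took 65.53% and 69.02% of Per1 TPM in replicates 1 and 2, and Per1-202, which begins at a more distant exon, 30.87% and 28.11%. The junction reads gave a similar split, with 24.6% of column 1 and 26.2% of column 2 leaving the distant exon (43 of 175 and 53 of 202 reads) and 72.6% and 73.3% leaving the exon of Per1-201. Per2 had Per2-201 as its only transcript above 0 TPM. Clock likewise had reads from 2 start exons. The one in Clock-201 had 35.0% of column 1 and 40.0% of column 2 (14 of 40 and 18 of 45 reads). The other had the rest.

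The cryptochromes are the direct repressors of the ARNTL and CLOCK pair. Cry1, the stronger repressor, whose loss shortens the period (chr10:85131700-85185064, minus strand), had 5.86 TPM in replicate 1 and 6.38 TPM in replicate 2. Cry2, whose loss lengthens it (chr2:92403646-92434043, minus strand), had 54.68 and 53.42 TPM. Cry2 was thus 9.33-fold and 8.37-fold above Cry1, a mean log2 ratio of 3.14. That ratio was 3.31 by mm9 RPKM and 3.5 in counts not divided by length, whereas the gap was narrower by junction reads. Those gave medians of 451.0 and 485.0 per intron for Cry2 and 69.5 and 75.0 for Cry1, a ratio of 6.49 and 6.47. Scaled counts of Cry1 were 1.22-fold (1.12 to 1.32) higher in replicate 2, with an adjusted binomial p of 1.48e-05 between the libraries. Those of Cry2 were 1.1-fold (1.07 to 1.12) higher, with an adjusted p of 5.08e-13, while its TPM was lower in replicate 2. Cry2-201 held 90.98% and 91.93% of Cry2 TPM. The antisense D930015M05Rik overlaps Cry2 by 23417 nt and had 0.13 and 0.11 TPM.

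Nr1d1, the haem-binding repressor of Arntl (chr11:98767932-98775333, minus strand), had 83.49 TPM in replicate 1 and 77.29 TPM in replicate 2. It stood 5.33-fold and 5.87-fold above its target Arntl, a log2 ratio of 2.48 that was 3.22 by mm9 RPKM. Its paralogue Nr1d2 had 0.336 and 0.339 of the Nr1d1 level, a log2 ratio of -1.57 that was -0.73 in counts not divided by length. Scaled counts of Nr1d1 were 1.04-fold (1.01 to 1.06) higher in replicate 2, with an adjusted binomial p of 0.0149, a call that was lost under plain totals (adjusted p = 0.494). Nr1d1 overlaps Thra, the thyroid hormone receptor gene on the opposite strand, by 1075 nt at the 3′ ends, and Thra had 422 and 356 TPM. The library was stranded, and whether the counting used strand is not stated. All 7 introns of Nr1d1 had reads, from 591 to 1318 in column 1.

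Dbp, a PAR bZIP activator that binds D-boxes and is among the most rhythmic outputs of the clock (chr7:45705088-45710203, plus strand), had 151.58 TPM in replicate 1 and 141.29 TPM in replicate 2. Its level was 9.67-fold and 10.7-fold above Arntl and 52.1-fold and 54.6-fold above Nfil3, the repressor that competes for D-boxes. By junction reads Dbp was 3.51-fold and 4.68-fold above Arntl and, with medians of 631.0 and 707.0 reads over its 3 introns, below Nr1d1 at 684.0 and 733.0. Among its relatives it stood 2.28-fold above Hlf in both libraries and at 0.849 and 0.898 of Tef by TPM. In counts not divided by length, the log2 ratio to Hlf turned from 1.19 to -0.4, that to Tef went from -0.2 to -1.56, and that to Nfil3 from 5.74 to 5.15. Scaled counts were 1.04-fold (1.02 to 1.07) higher in replicate 2, with an adjusted binomial p of 0.00515, lost under plain totals (adjusted p = 0.284). Dbp had 3 transcripts with at least 10% of its TPM in a library. The coding Dbp-201 held 49.12% and 52.82%, a transcript of 801 nt 27.55% and 28.4%, and one of 1732 nt 13.54% and 10.35%. Of these, only Dbp-201 is in GENCODE release 21, from which symbols were taken, and the TPM of Dbp includes the others. The 801 nt transcript has 1 intron of its own, with 8 reads in each column, against 631 and 707 for the intron that Dbp-201 alone has. The last intron of Dbp, which other listed transcripts share, had 2498 and 2415 reads, 4.21 and 3.59 times the reads of its 5′ intron. Sphk2 overlaps the end of Dbp by 737 nt on the opposite strand and had 12.8 and 11.1 TPM.

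Of 37 other genes of the clock pathway, all tested, 12 were higher in replicate 2, 4 were lower and 21 did not pass the threshold, with a median log2 ratio of 0.03. Of all genes tested 28.7% passed in either direction, and 41.1% of those with at least 2000 counts, so the share of these 37 was near that of well-counted genes. In the loop through the ROR and REV-ERB receptors, 2 of 4 were higher, and the list included Nr1d2 at 27.1 TPM on average, Rora at 11.9 and Rorb at 11.6. Rorb and Rora were close, with a TPM ratio of 0.998 and 0.954. Of the D-box factors, 1 of 3 was higher, among Tef at 168 TPM, Hlf at 64.2 and Nfil3 at 2.75. The E-box repressors and Arntl2 had 3 of 4 higher and 1 lower. They were led by Ciart, an inhibitor of the ARNTL and CLOCK pair, at 30.7 TPM, with Bhlhe40 at 27.1 and Bhlhe41 at 12.5. Arntl2, the paralogue of Arntl, had 9.35 and 7.72 TPM, a count ratio of 0.779 (0.708 to 0.857) with an adjusted binomial p of 2.23e-06, and was the only one of the 37 past the threshold and at least 1.2-fold apart. By TPM, Arntl stood 1.68-fold and 1.71-fold above it, a log2 ratio of 0.76 that was 1.65 in counts not divided by length.

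Among kinases and the phosphatase that set PER stability, 2 of 7 were higher and none lower. Csnk2b had the highest level, at 102 TPM, then Csnk1e at 95.9 and Csnk1a1 at 74.6, and Gsk3b the lowest at 24.0. Csnk1d had 0.596 and 0.585 of the Csnk1e TPM, and in counts not divided by length it was the higher (log2 ratio 0.34). Ubiquitin ligases and the deubiquitinase had 1 of 6 higher and 1 lower, and included Huwe1 at 50.6 TPM, Fbxw11 at 41.7 and Fbxl21 at 3.0. Nuclear partners had 1 of 8 higher and 2 lower, from Hdac3 at 83.3 TPM, Ncor1 at 69.8 and Nono at 59.7 down to Timeless at 2.07. Output genes had 2 of 5 higher, with Por at 49.6 TPM, Nampt at 13.2, Cdkn1a at 8.41 and Lonrf3 at 2.13. None of the 37 passed edgeR's exact negative binomial test with the spread between libraries.

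Markers of the suprachiasmatic nucleus, the master clock of the hypothalamus, were uneven among 8 genes. Six6 and Nms had 0 counts in both libraries, and Prok2, Lhx1, Vipr2 and Avp were each under 1 TPM. Rgs16 had 5.95 and 6.63 TPM, close to the level of Cry1, and was past the threshold between the libraries (adjusted binomial p of 2.11e-05). Vip, which cortical interneurons also express, had 32.11 and 31.21 TPM of the summed 39.0 and 38.6 TPM of that list. All 7 genes of the cortical neuron list were detected, among them Slc17a7, the vesicular glutamate transporter of excitatory cortical neurons, at 525 TPM. Genes of the glucocorticoid response, the hormone signal that also acts on Per1, had 2 of 8 higher and 2 lower in replicate 2 (420 and 393 TPM summed), with Zbtb16 at 15.96 and 9.31 TPM and Fkbp5 at 9.67 and 6.57. Whether they bear on the clock gene ratios was not tested.

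Neighbours within 5 kb that share no bases with a member were Btbd10 (44.8 and 37.1 TPM) beside Arntl, Tmem165 (21.9 and 18.9) and the antisense Gm7467 (2.46 and 2.61) beside Clock, and Rpl31 (429 and 393) beside Npas2. Vamp2 (631 and 571 TPM) lies beside Per1, Hes6 (11.0 in both) beside Per2, Vamp3 (28.6 and 27.1) beside Per3 and Mterf2 (7.17 and 7.65) beside Cry1. Mapk8ip1 (176 and 158 TPM) lies beside Cry2 and Car11 (205 and 173) beside Dbp, 406 nt from it. Uts2, beside Per3, had 0 counts in both libraries.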

How the data were processed

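Per the labels, polyadenylated RNA of 2 adult cortex libraries was measured. The deposited mm10 tables give expected counts, TPM with credible bounds, and each transcript as a percent of its gene, on GENCODE mouse release 4; program versions are not given in the sources used here. The deposited mm9 tables (Ensembl 65) give RPKM per gene and junction read counts in a pair of columns, which were tied to no replicate. Totals were 91875460 and 92939474 expected counts. Symbols and positions came from GENCODE release 21 (98.0% of gene rows matched).

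Expected counts were rounded and compared by an exact two-sided binomial test with TMM sizes (edgeR 4.0.16, R 4.3.3), in genes with at least 10 counts, with Benjamini-Hochberg adjustment over 19829 genes at 0.05. Log2 ratios added 0.5 counts. Alternatives used DESeq2 1.42.0 size factors, plain totals, TPM ratios, other count minimums and edgeR's exact test. These p-values compare 2 libraries, and intervals cover only counting error, as no molecular identifiers were read. Exon inclusion is the mean of reads at both ends over that mean plus skipping reads, with at least 20 in each column, and junctions with both ends shifted alike by up to 5 nt were joined. Splice choices shown have inclusion under 98% and at least 10 reads at each end. The Arntl exon of 21 nt reached that number of reads in column 1 but not in column 2. The 2000 count background and the 98% and 10 read limits were set after seeing the data. Scripts were tested on simulated data (Python 3.11.15, scipy 1.17.1).

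The members, lists and pairs were chosen with earlier results of these data known. Named genes are the members, their pairs and neighbours, and of each pathway list the 3 highest, the lowest and each past the threshold at 1.2-fold; marker lists are given mainly by counts and sums, and a few list genes are not reported here. Protein comparisons were not run.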

Additional observations from a re-analysis of the deposited data

How the results depend on the processing

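The count of 7 clock genes past the threshold became 8 under DESeq2 size factors and 6 under plain totals, 2 with a 1.2-fold minimum, and 0 when the spread between libraries over genes was added. The last setting took the count of all genes from 5694 to 260. The median log2 ratio of the members, 0.06, was -0.09 as TPM, where the median of all genes is -0.16. As TPM ratios, Cry2 (-0.03), Nr1d1 (-0.11) and Dbp (-0.1) turned from higher to lower in replicate 2. The levels themselves depend on the total that TPM is scaled to. Scaled over nuclear protein-coding genes alone, the mean was 287 TPM for Dbp and 12.1 TPM for Cry1, and all 45 gene pairs kept their order. Of the 45 gene pairs, from 43 to 45 kept the order of mean TPM when either replicate was left out, 41 did by mm9 RPKM and 40 by junction reads, a measure added after seeing the data, as were the junction ratios of gene pairs. Of 17 related pairs, the gene named first was higher in 10 to 11 when either replicate was left out. Without replicate 2, the log2 ratio of Per1 to Per3 was -0.0016, and 0.43 without replicate 1. Without division by length, the log2 ratio turned for Npas2 over Clock (-0.8), Arntl over Clock (-0.98), Dbp over Hlf (-0.4), Per2 over Arntl (0.79), Csnk1d over Csnk1e (0.34) and Rorb over Rora (0.04). By mm9 RPKM it turned for Npas2 over Clock (-0.25), Arntl over Clock (-0.24) and Per2 over Arntl (0.22). The cause of these changes was not tested, apart from the length that the first of them leaves out. The leading transcript was the same in 10 of 10 genes in either replicate. No paired analysis was possible because the 2 libraries form 1 group. Of the members, Cry1 had the fewest counts and the widest counting interval of its ratio.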
